A study of Drosophila melanogaster with 2 samples.

Results

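The summits of Medea binding that lay just inside genes, more than 100 and at most 1000 bp downstream of a transcription start site (TSS), made up 368 of the 5867 reproducible peaks in fly embryos. Each was chosen by position alone, as a summit whose nearest protein-coding TSS lay on its upstream side along the gene, in build dm6 with the Ensembl annotation of BDGP6. Summits within 1000 bp of both TSSs of a head-to-head gene pair with TSSs at most 1000 bp apart were left out, because downstream of one gene is upstream of the other. Signal was not used to choose them. The study precipitated chromatin with an anti-GFP antibody from whole Drosophila melanogaster embryos of both sexes, 0 to 24 h old, of a transgenic line that stably expressed Med with eGFP at its C-terminal end. The libraries were biological replicates 2 and 3 of 1 group, from separate biosamples, and there was no second genotype, treatment or stage, so no contrast between conditions could be made. The labels give neither the promoter of the fusion nor whether the untagged Med gene was intact. Both replicates were called against 1 control file, per the deposited manifests, so they share its error.

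Medea is the only common-mediator Smad that flies have. After a BMP ligand such as Dpp, or an activin-type ligand, binds its receptors, the Smads Mad or Smox are phosphorylated, join Medea and enter the nucleus, where the complex contacts GC-rich Mad sites and the short GTCTG sequence. In the fly this pathway patterns the dorsal side of the embryo, and it acts later in tissue growth and at the synapse. Introns close to a promoter are a common place for enhancers in the compact fly genome.

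The sequence under the summits is shown first for strong members and for genes of the Medea pathway itself. Each line holds the summit base and 50 bp to either side of it, in dm6, written 5′ to 3′ on the strand of the gene, and taken only from windows outside annotated UTRs, with the right arm of chromosome 2 left out. Capitals mark matches on either strand to any of 12 short motifs, among them GTCTG, the GC-rich Mad site GCCGNCG, the palindromic Smad box GTCTAGAC, the GAGA-factor sequence GAGAG and the BEAF-32 sequence CGATA. The windows of CG9663 (chr2L:3302127-3302227, minus strand), LPCAT (chrX:9579244-9579344, minus strand) and mub (chr3L:21880449-21880549, plus strand) are those of the 3 strongest such members, and none of the motifs occurred in them.
CG9663: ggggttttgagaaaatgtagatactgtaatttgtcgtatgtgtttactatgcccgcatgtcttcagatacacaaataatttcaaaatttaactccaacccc
LPCAT: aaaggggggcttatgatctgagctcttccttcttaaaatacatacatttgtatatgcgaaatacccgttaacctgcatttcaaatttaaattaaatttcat
mub: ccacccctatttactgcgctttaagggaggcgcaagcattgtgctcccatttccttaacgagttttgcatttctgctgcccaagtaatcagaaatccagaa

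Akt (chr3R:16099837-16099937, plus strand), which encodes the protein kinase of the insulin pathway, had 3 copies of GTCTG in its window, 1 of them on the opposite strand. The window of rudhira (chrX:11818553-11818653, plus strand) is that of the strongest such member with GAGAG. The windows of stwl (chr3L:14409493-14409593, minus strand) and Pdk1, a kinase gene whose product activates Akt (chr3L:133554-133654, plus strand), are those of the strongest such members with GCCGNCG and with the palindromic Smad box. In the stwl window the GC-rich Mad match is flanked by CGATA matches on both sides, with 1 of them overlapping it, and in the Pdk1 window the Smad box stands 4 bases before a GTCTG match.
Akt: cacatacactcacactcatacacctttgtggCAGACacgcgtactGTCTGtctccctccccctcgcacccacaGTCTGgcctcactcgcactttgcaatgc
rudhira: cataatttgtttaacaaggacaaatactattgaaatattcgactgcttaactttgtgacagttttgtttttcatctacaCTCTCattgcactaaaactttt
stwl: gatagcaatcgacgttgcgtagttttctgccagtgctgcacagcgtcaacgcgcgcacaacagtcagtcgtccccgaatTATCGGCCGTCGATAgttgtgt
Pdk1: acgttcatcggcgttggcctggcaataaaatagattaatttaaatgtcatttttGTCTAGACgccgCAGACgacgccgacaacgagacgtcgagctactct

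The pathway genes with a peak at this position were wit, the type II BMP receptor (chr3L:4071137-4071237, minus strand), Smox, the Smad of the activin branch (chrX:8141474-8141574, minus strand), and Mad, the Smad of the BMP branch (chr2L:3158711-3158811, minus strand). These windows were added for what the genes are and not for their signal. Of the motifs marked by capitals, the wit window held GTCTG, the Mad window held GAGAG and GCCGNCG, and the Smox window held none. Other motifs were sought in these windows but are not marked. Among those, the Mad window held GGCGCT, the Brinker sequence, and the Smox window held TAATTA and GGAATG, on either strand.
wit: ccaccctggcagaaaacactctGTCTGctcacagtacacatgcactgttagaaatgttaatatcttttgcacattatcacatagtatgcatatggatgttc
Smox: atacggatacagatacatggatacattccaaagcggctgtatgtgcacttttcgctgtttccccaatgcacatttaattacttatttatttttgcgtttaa
Mad: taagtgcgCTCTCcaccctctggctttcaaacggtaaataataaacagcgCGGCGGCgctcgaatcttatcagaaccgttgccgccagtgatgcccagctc

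The downstream position held fewer Medea summits than the upstream position, both in number and per base. The 368 members were 6.27% of the reproducible summits (Wilson 95% interval 5.68 to 6.92%, counting error only), against 17.8% for the 1046 summits more than 100 and at most 1000 bp upstream and 14.98% for the 879 within 100 bp of a TSS, here called core summits. Eligible sequence is every base that the rule could have chosen. Over 11.3 Mb of it there were 32.7 downstream summits per Mb, against 114 per Mb upstream, 342 per Mb in the core and 20.7 per Mb farther than 1000 bp from any TSS. The replicates gave this order separately. Among as many of the strongest peaks of each replicate as the reproducible list held, replicate 2 had 348 downstream summits (30.9 per Mb) and replicate 3 had 408 (36.2 per Mb), against 124 and 106 per Mb upstream. Density was thus higher downstream than in distal sequence and lower than upstream in both replicates.

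Along the gene the density was lowest at 200 to 300 bp. With each step counted from just past its lower limit, there were 56 summits at 100 to 200 bp (45.2 per Mb), 15 at 200 to 300 bp (12.3 per Mb), and 32 at 300 to 400 bp (26.3 per Mb). From 400 to 1000 bp the counts per 100 bp lay between 37 and 49, or 30.4 to 37.6 per Mb. Upstream the density was 309 per Mb at 100 to 200 bp and 36.2 per Mb at 900 to 1000 bp, so at the far end the downstream and upstream sides had similar densities. The median distance of the members was 617 bp, with quartiles of 383 and 806 bp. The low density at 200 to 300 bp was not set apart equally in the replicates. Replicate 2 had 14.7 summits per Mb there against 24.7 per Mb at 300 to 400 bp, while replicate 3 had 23.7 per Mb there and 23.8 per Mb at 300 to 400 bp.

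**Figure D1:**
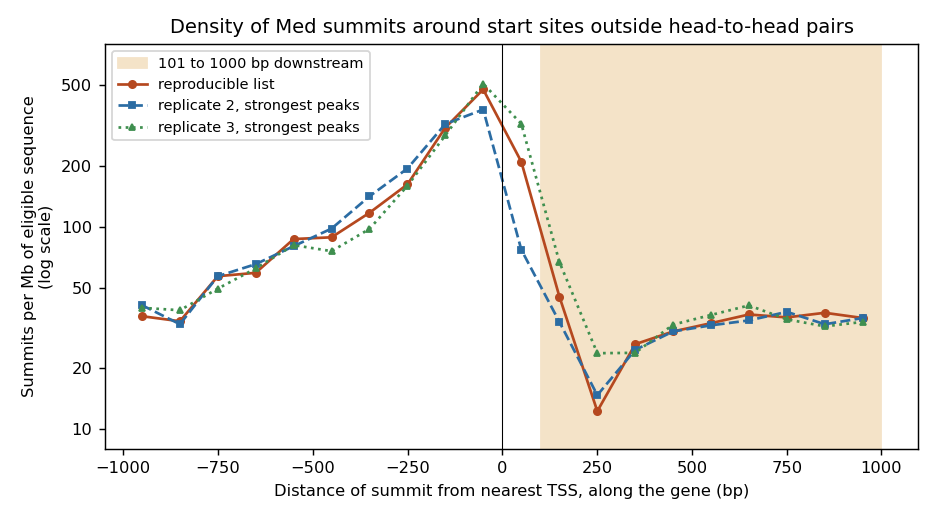
Summits per Mb of eligible sequence (log scale) in 100 bp steps of distance from the nearest TSS, negative upstream and positive downstream along the gene, for the reproducible list and for the strongest peaks of replicates 2 and 3. Downstream of the TSS the reproducible list falls to 12.3 per Mb at 200 to 300 bp and stays at 30.4 to 37.6 per Mb from 400 bp on.

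The replicates differed most next to the TSS. At 100 to 200 bp replicate 3 had 83 summits and replicate 2 had 42, and at 0 to 100 bp downstream, outside the class, replicate 3 had 419 and replicate 2 had 100. From 300 bp on the replicates had similar counts in each step, as the plot of density by distance shows. Of the 56 members at 100 to 200 bp, 40 had peak intervals that covered the TSS itself, against 1 of all other members. The median member interval was 376 bp wide, so covering the TSS largely follows from standing this close to it. Fragments were 200 to 800 bp long per the labels, at least as long as the distance of these 56 summits from the TSS. Whether signal at the TSS contributed to these summits was not tested.

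Just inside the limits of the class the 8 members within 10 bp of the near limit had a median signal of 208 and the 7 members at 990 to 1000 bp a median of 258. Just outside, the 13 summits at 91 to 100 bp had a median of 196 and the 6 up to 10 bp beyond the far limit a median of 206. Signal is the authors' value per peak, of unstated scale, and it ranks peaks within a list only. The strongest inside the near limit was at Mer (949, 109 bp), the Merlin gene, and the strongest outside it was at CG12316 (1145, 100 bp). At the far limit the strongest inside was at Svil (807, 990 bp), a supervillin gene, and the strongest outside was at crb (542, 10 bp beyond it), the apical polarity gene crumbs. Peaks of similar strength therefore stood on both sides of both limits.

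Introns were the main place of these peaks. Of the 368 summits, 271 lay in introns (73.6%, Wilson 95% interval 68.9 to 77.9%), against 33.7% of the eligible bases. The 5′ UTR held 73 summits (19.8%) against 14.6% of the eligible bases. Coding exons held 17 summits (4.62%) although they made up 44.3% of the eligible bases, so the density was 71.5 per Mb in introns, 44.4 per Mb in 5′ UTRs and 3.41 per Mb in coding exons. A further 2 summits lay in 3′ UTRs and 5 outside these features. Each base was assigned in the order UTR, coding exon, intron over all protein-coding transcripts, so a base that is exonic in any transcript was not counted as intron.

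**Figure D2:**
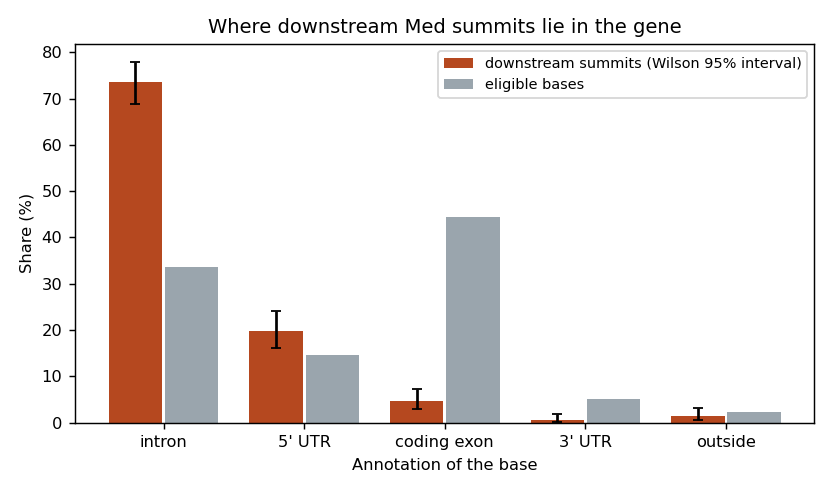
Share of the 368 downstream summits (bars at left of each pair, with Wilson 95% intervals) and of the eligible bases (bars at right) by annotation of the base. Introns hold 73.6% of the summits and 33.7% of the eligible bases, and coding exons hold 4.62% of the summits and 44.3% of the eligible bases.

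The place changed with distance. At 100 to 200 bp the 5′ UTR held 69.6% of the summits and introns 23.2%, at 200 to 400 bp introns held 61.7%, at 400 to 700 bp 84.7% and at 700 to 1000 bp 87.9%. The low step at 200 to 300 bp was seen within introns too. Intronic bases had 58.2 summits per Mb at 100 to 200 bp (13 summits), 15.4 at 200 to 300 bp (5 summits), 63.9 at 300 to 400 bp (24 summits) and 79.9 from 400 to 1000 bp (229 summits). The counts at 100 to 300 bp are small. Taken by the transcripts that start at the TSS itself, 258 summits (70.1%) lay in the first intron, which held 28.9% of the eligible bases, and 79 (21.5%) in the first exon, which held 35.8%. Later introns held 15 summits and 27.6 per Mb, against 79.3 per Mb in first introns. The difference between first and later introns rests on those 15 summits.

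The strongest member lay in the first intron of CG9663, 953 bp from its only TSS, with a signal of 4345, and was number 12 of the whole reproducible list. Its signal was 2012 in replicate 2 and 2349 in replicate 3. The next strongest were at LPCAT, a lysophospholipid acyltransferase gene, with 2237, at wde, whose product is a cofactor of the histone methyltransferase Eggless, with 1852, and at mub, an RNA-binding protein gene, with 1807. Replicate signals at LPCAT were 1055 and 1182, at wde 858 and 1014, and at mub 841 and 969 in replicates 2 and 3. All of these lay in first introns, and all were among the strongest peaks of both replicates.

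Of the 12 strongest members 10 lay in introns. The others were in the 5′ UTR of CG18622 (1733, 196 bp) and of the F-box protein gene Fbl6 (1334, 526 bp). CG31635 had 1736, CG31612 had 1621, CG42327 had 1442, Fem-1 had 1397, Akt had 1352 and CG1737 had 1346. Over these 12 the replicate 2 signals lay between 262 and 2012, and those of replicate 3 between 697 and 2349. Akt was the member of this group in which the replicates lay farthest apart, with 262 in replicate 2 and 1081 in replicate 3. In the other 11 the replicate 3 signal exceeded that of replicate 2 by at most 0.53 on the log2 scale, where Akt differed by 2.04.

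The strongest members in coding exons were weaker than those in introns or 5′ UTRs. They were at CG44812 (635), which lies inside the serum response factor gene bs, at Got2 (370), an aminotransferase gene, and at CG31259 (281). Their replicate signals were 308 and 327, 164 and 200.4, and 113 and 165 in replicates 2 and 3. The median signal was 286 for intronic members, 253 for those in 5′ UTRs and 195 for those in coding exons.

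As a class the downstream peaks were weaker than the upstream peaks and close to the core peaks. Their median signal was 260 (quartiles 199 and 453), against 326 upstream, 252 in the core and 282 over all reproducible peaks. Each replicate's own strongest peaks, which are a different set from the members, were also compared by class. In replicate 2 their medians were 119.9 downstream, 137 upstream and 118 in the core, and in replicate 3 they were 154, 194 and 159 in that order. With the list split into 4 equal parts by signal, the members fell as 92, 80, 84 and 112 from the strongest to the weakest part. The strongest part held 25% of the members, against 32.8% of the upstream and 16.4% of the core peaks, and the weakest held 30.4% of the members, against 19.5% and 28.9%. Signal hardly varied with distance within the class, with medians of 247, 281, 266 and 255 at 100 to 200, 200 to 400, 400 to 700 and 700 to 1000 bp.

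**Figure D3:**
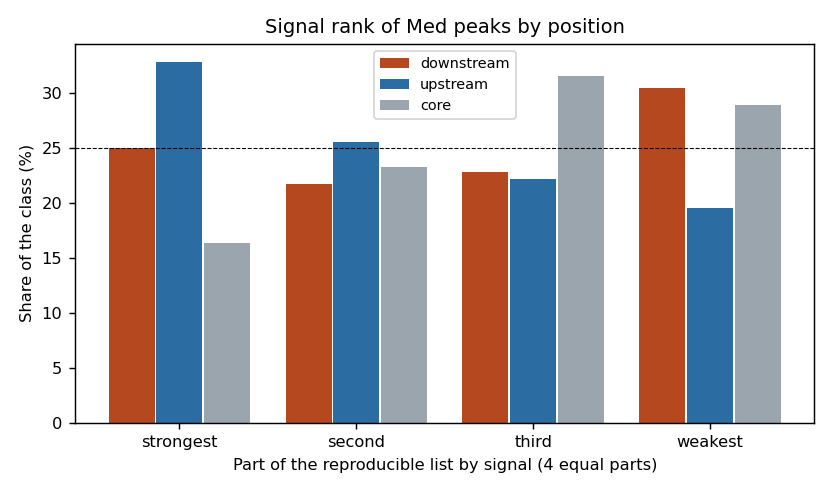
Share of the downstream, upstream and core peaks that falls in each of 4 equal parts of the reproducible list by signal, with a dashed line at 25%. The downstream peaks are spread over all 4 parts, with 30.4% of them in the weakest, while 32.8% of upstream peaks are in the strongest.

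Agreement of the replicates was somewhat lower for downstream peaks than for the list. A summit of both replicates' strongest peaks stood within 100 bp of 227 members (61.7%, Wilson 95% interval 56.6 to 66.5%), against 67.4% of all reproducible peaks, 73.1% of upstream and 56.3% of core peaks. The share followed signal: it was 97.8% of the members in the strongest of these 4 parts and 15.2% of those in the weakest, against 98.3% and 18.6% of all peaks there. An overlapping peak in the relaxed list of replicate 2 was missing for 16 members (4.35%), where the background over all reproducible peaks was 3.95%. In replicate 3 it was missing for 1 member (0.272%), where the background was 1.4%. The first of these shares is near that of the whole list, and the second rests on 1 peak.

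Among the 351 members with a peak in both relaxed lists the median signal was 122 in replicate 2 and 174 in replicate 3, and 289 (82.3%) were higher in replicate 3, against 75.6% of all such peaks. The scales of the replicate lists can differ, so this share is read beside the list and not beside an even split. The median log2 ratio of replicate 3 to replicate 2 was 0.45 (SD 0.83 over members), against 0.25 upstream, 0.76 in the core and 0.33 over all peaks. A total of 56 members (15.95%) had a ratio more than 2-fold above the list median, against 13.1% of all such peaks, and 5 (1.42%) more than 2-fold below it, against 2.49% of all. Spearman's rho between the replicate signals was 0.65 across the members, a description over peaks of the same 2 libraries and 1 control. For 20 members the strongest overlapping replicate peak was not the one with the nearest summit, and for 23 members the nearest summit of at least 1 replicate was more than 100 bp away, so these replicate values may belong to a neighbour.

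**Figure D4:**
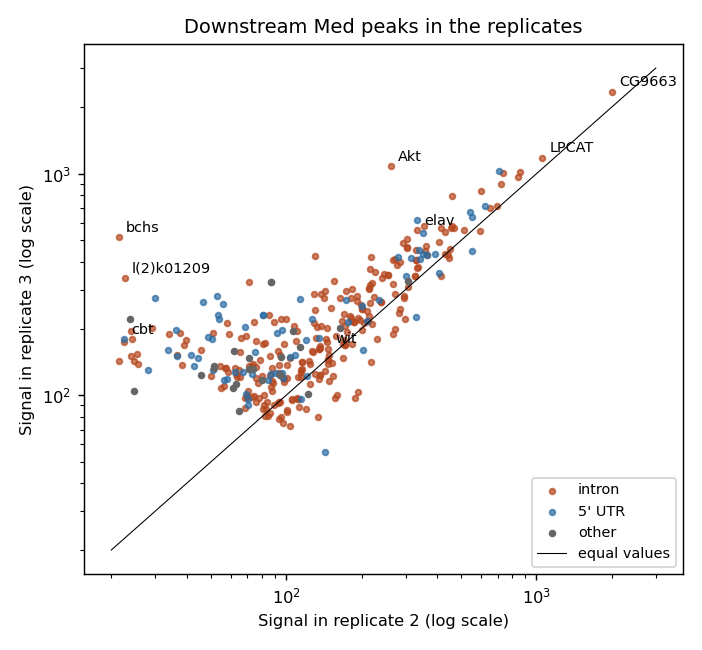
Signal of the 351 downstream peaks found in both relaxed lists, replicate 2 on the horizontal and replicate 3 on the vertical axis (both log scales), coloured by place, with a line of equal values. Strong peaks such as CG9663 and LPCAT lie near the line, while bchs, l(2)k01209 and Akt lie well above it.

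The members with the highest ratio were at bchs, a BEACH-domain gene that acts in autophagy, at l(2)k01209, and at SdhC, a subunit of succinate dehydrogenase. Their signals were 21.4 and 517, 22.6 and 339, and 23.7 and 221 in replicates 2 and 3. Each was thus near the low end of the relaxed list of replicate 2, and at bchs the replicate 2 summit lay at 548 bp, against 437 bp in replicate 3. The members with the lowest ratio were at the most 3′ TSS of ph-p, at CG7987 and at CG11200 (357 bp). Their signals were 142 and 55.2, 188 and 97.3, and 194 and 103 in replicates 2 and 3. The CG11200 peak is among the 20 named above. The replicate 2 peak nearest to its summit had 157, and with that value its ratio would not be among the 3 lowest. The strongest members without a replicate 2 peak were at Cap-H2, a condensin subunit gene (298), at CG12134 (286), and at Utx, a histone demethylase gene (255), and the member without a replicate 3 peak was at CG44290 (243), inside CG43447.

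Genes with a downstream peak were longer and had more start sites than protein-coding genes as a whole. The members named 345 genes, 2.47% of the 13945 protein-coding genes. Their median length was 8154 bp, against 2166 bp for all protein-coding genes, and 37.4% of them had 3 or more TSSs, against 8.12%. The median number of TSSs was 2, against 1, and 33.0% of them had only 1 TSS, against 73.5%. The median of their longest first intron was 2911 bp, against 127 bp. Genes with an upstream peak had a median length of 7171 bp and a first intron of 2347 bp, so the genes of downstream and upstream peaks were alike in build.

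The rule itself favours genes with many TSSs, since each TSS adds eligible bases. Of the genes that could have had a downstream peak, 1.16% of those with 1 TSS had one, 4.08% of those with 2 and 11.4% of those with 3 or more. By first intron the share was 0.453% for genes with no intron, 0.972% below 1000 bp, 7.77% from 1000 bp to under 10000 bp and 9.28% from 10000 bp on. Per base, intronic members had 47.3 summits per Mb where the first intron of the TSS was absent or under 1000 bp, 98.4 per Mb where it was 1000 bp to under 10000 bp and 64.9 per Mb where it was longer. The longest introns, with 24 members, therefore did not have the highest density. The most 5′ TSS of a gene carried 188 members (24.7 per Mb) and internal TSSs carried 180 (49.2 per Mb). Genes with 1 TSS, whose share was 1.16%, count only towards the most 5′ TSS. These densities therefore mix the kind of gene with the position of the TSS. Whether internal TSSs differ from the most 5′ TSS within genes that have both was not tested.

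**Figure D5:**
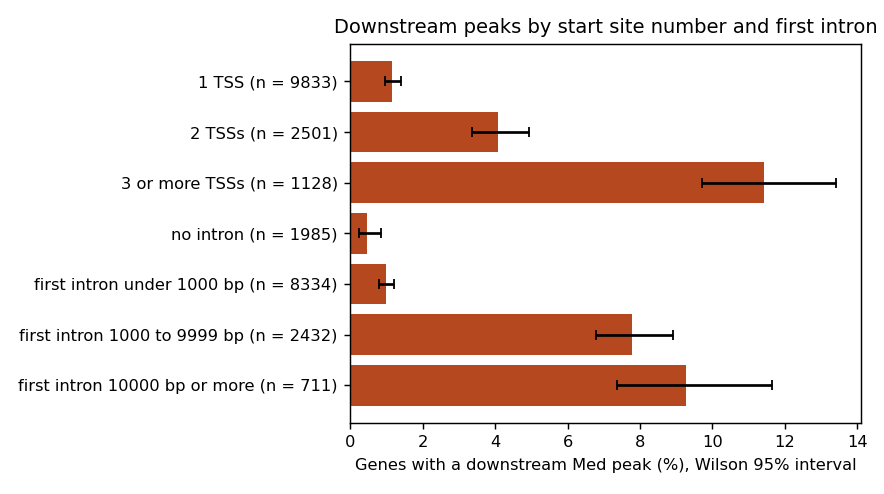
Share of genes with a downstream peak, with Wilson 95% intervals, by number of TSSs (top 3 bars) and by length of the longest first intron (lower 4 bars), among genes that could have had one. The share is 1.16% with 1 TSS and 11.4% with 3 or more, and 0.453% with no intron and 9.28% with a first intron of 10000 bp or more.

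Most downstream peaks stood alone at their TSS, but their genes had other peaks more often than protein-coding genes as a whole. By gene, 25.2% also had an upstream peak and 18.0% a core peak, against 6.70% and 6.31% of all protein-coding genes. The part of TSS number and gene length in this was not tested. For 207 members (56.3%) no other reproducible summit lay within 1000 bp of the TSS, while 94 (25.5%) also had an upstream summit there and 53 (14.4%) a core summit. There were 22 genes with 2 members and 2 genes with 3. The genes with 3 were CrebB, the cyclic AMP response element binding factor, and Stat92E, the transcription factor of the JAK-STAT pathway. At CrebB the summits at 149, 698 and 899 bp had signals of 312, 727 and 189.8, and those at 698 and 899 bp shared 1 peak interval. At Stat92E the summits at 120, 373 and 1000 bp had 209, 253 and 255. The replicate signals of the Stat92E summit at 1000 bp were 154 and 123 in replicates 2 and 3. At 373 bp replicate 3 had 231, while the overlapping peak of replicate 2, with 81.1, had its summit at 121 bp and was also that of the summit at 120 bp.

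Of 31 genes of the BMP and activin pathways 3 had a downstream peak (9.68%, beside the background of 2.47%), while 4 had an upstream and 5 a core peak. A list of 31 genes is too small for this share to be read against the background. The strongest was at the receptor gene wit, with 300.2 (147 in replicate 2 and 162 in replicate 3), 530 bp into the first intron. Smox had 224 (98.2 and 114 in replicates 2 and 3) at 755 bp and Mad had 199 (80.1 and 122) at 882 bp, both in first introns. All 3 stood in the strongest lists of both replicates, and Smox and Mad were below the median of the class. Of 26 Dpp target genes only cbt, a zinc-finger transcription factor gene, had one, with 202. That peak lies 655 bp from the cbt TSS in the 5′ UTR, inside the gene ush, and had 22.6 in replicate 2 and 179 in replicate 3, so it rested mainly on replicate 3. No ligand gene of the pathway list had a downstream peak.

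Downstream peaks stood at genes of most other signalling pathways examined. Over 9 signalling lists, the BMP list included, 14 of 152 genes had one (9.21%, Wilson 95% interval 5.57 to 14.9%), beside the background of 2.47%. These genes also had long introns more often: 55.3% had a first intron of at least 1000 bp, against 22.7% of all genes. Among genes with such an intron 9 of 84 signalling genes (10.7%) and 255 of 3160 genes in all (8.07%) had a member. Within that group only, the shares were near each other. The remaining signalling genes with a member had a shorter first intron or none, and their share was not computed. Whether intron length accounts for the share over all 152 signalling genes was therefore not tested. Over all genes that could have had a peak the share was 0.972% below 1000 bp and 0.453% with no intron.

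In the Ras pathway cic, an HMG-box repressor gene that the MAP kinase acts on, had 889 (354 and 543 in replicates 2 and 3), in the 5′ UTR. Raf, the kinase below Ras, had 2 summits in 1 interval, with 809 at 796 bp and 450 at 996 bp, and aop, an ETS repressor gene, had 324. In the insulin pathway Pi3K92E, the catalytic subunit of phosphoinositide 3-kinase, had 471 (174 and 270 in replicates 2 and 3) beside Akt. Mer, upstream in the Hippo pathway, had 354 and 583 in replicates 2 and 3. The GSK3 kinase gene sgg had 469.9, the Notch inhibitor gene numb had 197, the co-repressor gene Hairless (H) had 175 and the Hedgehog receptor gene ptc had 168. The JNK list had none among 12 genes, too few to read against the background.

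Of 66 genes of Polycomb and Trithorax proteins and other chromatin and RNA regulators 9 had a downstream peak (13.6%, Wilson 95% interval 7.34 to 23.9%), beside the background of 2.47%. A first intron of at least 1000 bp was present in 30.3% of these genes. Of those 20 genes 6 (30%) had a member, against 8.07% of all genes with such an intron, and these counts are small. The Polycomb subunit gene ph-p had 987 at 452 bp (555 and 447 in replicates 2 and 3) and a weaker one of 174 at the near limit of the class, at its most 3′ TSS. Trl, which encodes GAGA factor, had 825 at 138 bp (394 and 434 in replicates 2 and 3), at its most 3′ TSS and inside CG42507, and 406 at 644 bp from its most 5′ TSS. The Brahma complex gene osa had 334, the bromodomain gene fs(1)h had 397, the insulator protein gene CTCF had 286 and Clamp, another GA-binding factor gene, had 201.015. Hrb27C, an hnRNP gene, had 422 (220.5 and 209 in replicates 2 and 3).

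Among cytoskeleton and adhesion genes 4 of 21 had a downstream peak (19.0%, beside the background of 2.47%), and this list too is too small to be read against it. They were rhea, the talin gene, with 522 (214 and 305 in replicates 2 and 3), sqh, the myosin regulatory light chain gene, with 462 (211 and 239.8), the integrin gene if with 268 (124 and 142), and Moe, the moesin gene, with 241. The other lists gave single genes: cnc, the Nrf2-like stress factor gene, with 539, CycG with 227 and Rab5 with 182.

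Of 90 genes in the Hox, segmentation, patterning and ecdysone lists 3 had a downstream peak (3.33%, Wilson 95% interval 1.14 to 9.35%), near the background of 2.47%. Of those with a first intron of at least 1000 bp 5.56% had one, against 8.07% of all such genes. The neuronal RNA-binding protein gene elav, listed there as a neural marker, had 890.4 (332 and 557 in replicates 2 and 3) in an intron that also lies inside arg, its relative Rbp9 had 201.3 and the muscle factor gene Mef2 had 213. The 8 Hox genes, 27 segmentation genes and 15 ecdysone response genes had none, and lists of this size are too small to be read against the background of 2.47%. None of 257 ribosomal, mitochondrial ribosomal, translation initiation and proteasome genes had one either, although 35 of them had a core summit. Only 4.67% of those genes had a first intron of at least 1000 bp. The 211 cuticle and chemoreceptor genes had no downstream, upstream or core peak.

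The downstream summits held neither of 2 longer motifs that mark core promoters. The distance rule keeps their windows off the nearest TSS, so the contrast with core summits partly follows from that rule. The DRE, TATCGATA, occurred in 0 of 368 such windows of 50 bp to either side of the summit, which allows a share of up to 1.03% by the Wilson 95% interval, against 8.99% of core summits and 0.14% of eligible windows. Motif 1, GGTCACACT, also occurred in 0, against 4.89% of core summits and 0.04% of eligible windows. CGATA occurred in 11.4%, against 38.7% of core summits and 11.6% of eligible windows. Low shares were not particular to the downstream class. The DRE was in 1.15% of upstream and 0.18% of distal summits, Motif 1 in 0.19% and 0.18%, and CGATA in 13.6% and 11.8%. All motifs were sought on both strands, and CGATA lies within the DRE. In these motifs the downstream summits were thus like the sequence around them.

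The short Smad sequence was not more frequent at the summits than nearby. GTCTG occurred in 7.61% of the windows (Wilson 95% interval 5.32 to 10.8%), against 11.4% in windows 500 bp to either side, 12.7% of eligible windows and 10.1% of all reproducible summits. Within introns it was 7.38%, against 10.7% of eligible intronic windows. GCCGNCG occurred in 3.26%, against 5.27% of eligible windows, and GGCGCC in 1.36%, against 2.16%. The palindromic Smad box was found in 1 window, at Pdk1, the composite activating element of Mad and Medea in 1, at the ATP citrate lyase gene ATPCL, and the composite silencer element in 0. A match is only a run of letters, and its absence from a window says nothing of binding by another route.

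GAGAG lay near its backgrounds. It occurred in 12.8% (Wilson 95% interval 9.74 to 16.6%), against 15.5% of flanks and 11.5% of eligible windows, and members with it had a median signal of 221 against 268 without it. GGCGCT, the Brinker sequence, occurred in 20 windows (5.43%, Wilson 95% interval 3.55 to 8.24%), against 3.84% of eligible windows. Within introns it occurred in 13 windows (4.80%, interval 2.82 to 8.03%), against 2.16%. The replicates differed: it was in 3.16% of the downstream windows of replicate 2's strongest peaks and 5.64% of those of replicate 3. CCGGAA, an ETS sequence, occurred in 1.09%, against 4.23% of eligible windows and, within introns, in 1.11% against 2.20%. The median GC content of the windows was 38.6%, against 46.5% of eligible windows, and in introns it was 37.6%, against 38.6%. The part of base composition in the motif shares was not tested.

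Members were found on all main arms except chromosome 4. There were 78 on X (21.2% of members, against 17.3% of the eligible bases), 100 on 3R, 72 on 3L, 62 on 2R and 56 on 2L. The density was 39.99 per Mb on X, 37.4 per Mb on 3R, 32.6 per Mb on 3L and 27.2 per Mb on both arms of chromosome 2. The order of X and 3R differed between the replicates, with 39.99 per Mb on X and 32.2 per Mb on 3R in replicate 2, and 37.4 per Mb on X and 41.1 per Mb on 3R in replicate 3. Chromosome 4 held 0.788% of the eligible bases. Of all members 29 (7.88%) lay also inside another protein-coding gene, and a peak has no strand, so it cannot be assigned to 1 of them.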

How the data were processed

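The dm6 peak lists were used: 1 relaxed list per replicate, and the optimal list kept after an irreproducible discovery rate threshold. Signal is the authors' deposited value for a peak and served to rank peaks within a list. The aligner, the caller and the threshold were not given in the sources used here. Read totals were not used, so depth is unknown and Wilson 95% intervals cover counting error only. TSSs, exons and introns were read from Ensembl release 115 (BDGP6.54), and sequence from the Release 6 genome, with positions counted from 1. No test was run: there is 1 group, peaks are not replicates, and values stand beside eligible sequence or all peaks. Each replicate's top list was its 5867 strongest peaks, and a summit within 100 bp counted as a match. For each replicate the signal came from the strongest of its relaxed peaks that overlapped. All 24 motifs were sought in windows of 50 bp to either side of a summit.

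The members, 26 gene lists and motifs were chosen with earlier results of these data known. Of the list symbols 13 were not matched and are not analysed here. Genes were named by a rule: the 12 strongest members, all at pathway and Dpp target genes, the 3 strongest per other list, and per place, the extremes of the replicate ratio, those missing from 1 replicate, those at the distance limits, and genes with 3 or more members. ATPCL, osa, aop, Moe, CTCF, Clamp and the genes of printed sequences outside that rule were named as members of lists or holders of motifs. Alternatives changed the strength, distance, TSS set, pair rule, replicate, matching and window. The classification and motif search were tested on simulated data. Python 3.11.15, numpy 2.4.6, pandas 2.3.3, scipy 1.17.1 and matplotlib 3.10.9 were used.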

Additional observations from a re-analysis of the deposited data

How the results depend on the processing

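Of 73 alternative values 42 stayed within the spread used to judge them and 31 moved. A change of sign was possible only for the log2 ratio, where none was seen. Shares, counts, distances and signals cannot be negative. Among the 50% strongest peaks the median signal was 473, the share in both top lists 94.8%, the median log2 ratio 0.31, the intron share 79.7%, with 166 genes and 19 list genes. Among peaks in both top lists these were 402 for signal, 0.33 for the ratio, 79.7% for introns, 219 genes and 9.69% for GAGAG. With 100 to 500 bp the class held 2.39% of summits, with a median distance of 278 bp, 51.4% in introns, 136 genes, 13 list genes and 8.57% with GAGAG, and with 200 to 1000 bp it held 5.32%, with a median distance of 670.5 bp and 82.7% in introns. Keeping head-to-head pairs gave 7.50% of summits, and counting any peak interval that reached the window gave 18.1%. The most 5′ TSS alone gave 62.9% in introns, and counting introns before exons gave 85.6%. The share in both top lists was 52.4% at a matching distance of 50 bp and 89.1% against the relaxed lists. GAGAG was in 6.79% of windows of 51 bp and 26.6% of windows of 100 bp to either side. Without 1 replicate, the class held 5.93 to 6.95% of summits, at a median distance of 548 to 616.5 bp, with 66.2 to 76.1% in introns; the lower intron share and shorter distance are those without replicate 2. Signal, replicate ratio and the share in both top lists have no value without a replicate, and the last has none among peaks chosen for it. Replicate signal from the peak with the nearest summit, chosen after seeing the data, left the median log2 ratio at 0.45. No paired analysis was possible because there is 1 group. The causes were not tested, apart from the narrower windows and lists that the alternatives set by construction.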

Other observations

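Close neighbouring summits were mostly called at a near-fixed spacing. The caller was not given, and whether it sets a smallest spacing between summits was not tested. Of the 26 downstream summits with another reproducible summit within 500 bp, 22 (84.6%) stood 190 to 220 bp from it and none closer than 200 bp, and over the whole list 300 of 354 such summits (84.7%) did so. A total of 8 downstream summits shared their peak interval with another summit.

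Of the genes with a downstream peak, 24.3% carried only a CG number as a symbol, against 43.7% of all protein-coding genes. Only 2 downstream summits lay within 100 bp of the start of a non-coding gene.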
